A study of Mus musculus with 12 samples.

Results

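Tibia shafts of 4 Jrt;Sost-het mice, which carry the dominant *Col1a1* Jrt allele of severe osteogenesis imperfecta, were compared with those of 4 WT mice over all genes. These are 8 of the 12 RNA libraries of the series, and the other 4 come from Jrt;Sost-ko mice. All mice were male and 8 weeks old, the marrow had been flushed from the shafts, and each library holds the poly(A) RNA of 1 mouse. In the labels the genotype of the Jrt;Sost-het group is Col1a1Jrt/+ alone, and *Sost*+/- is stated by the paper. The Jrt;Sost-ko mice are Col1a1Jrt/+ Sost-/-, and the WT mice carry neither allele. The Jrt allele stems from the FVB strain and the *Sost* deletion from C57BL6, and the colony had a mixed background. WT mice were bred in a separate colony of mixed FVB and C57BL6 background. A *Sost*-heterozygous group without the Jrt allele was not analysed here, so that the Jrt allele, the loss of 1 *Sost* allele and the colony cannot be told apart in this comparison. Mice are numbered 1 to 4 within each group, and the numbers pair no mice.

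Type I collagen, the main protein of bone matrix, is a triple helix of chains encoded by *Col1a1* and *Col1a2*. The chains are modified and folded in the endoplasmic reticulum, exported, trimmed and crosslinked, and dominant variants in the helix cause osteogenesis imperfecta, in which bones are brittle. Sclerostin, the product of *Sost*, is secreted by osteocytes and binds the Wnt coreceptors Lrp5 and Lrp6, which restrains bone formation. Deletion or inhibition of sclerostin raises bone mass.

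The Jrt variant disrupts the donor splice site that follows exon 9 of *Col1a1*, so that the transcript of the allele lacks this exon. The exon and its neighbours are shown because their length and repeat give the form of the mutant chain. In GRCm38 (plus strand, GENCODE M21), exons 8, 9 and 10 of 51 have the following reference sequences, with the skipped exon in capitals.
exon 8, chr11:94939904-94939957: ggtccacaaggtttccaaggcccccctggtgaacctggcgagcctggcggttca
exon 9, chr11:94940118-94940171: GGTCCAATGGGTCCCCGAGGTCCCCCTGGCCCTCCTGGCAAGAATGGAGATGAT
exon 10, chr11:94940545-94940598: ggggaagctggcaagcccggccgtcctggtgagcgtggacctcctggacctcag
Each exon is 54 bases long, which is 18 codons that begin with a glycine codon, and loss of exon 9 therefore leaves the reading frame intact. Exon 9 makes up 0.911% of the 5930 bases of the transcript. The counts are per gene, so that reads of the normal and the shortened transcript were counted together and the share of either was not analysed here.

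No gene passed the test between the Jrt;Sost-het and WT mice. Of 47069 genes in the count table, 16775 had enough counts to be tested, and edgeR's quasi-likelihood test called 0 of them (0%) at a Benjamini-Hochberg adjusted p under 0.05. The adjusted p was 1 for every gene. DESeq2 and limma-voom also called 0 genes (0%). The unadjusted p was under 0.05 in 359 genes (2.14%) with edgeR, in 403 (2.4%) with DESeq2 and in 770 (4.59%) with limma-voom. With edgeR, 209 of these were higher in Jrt;Sost-het mice (1.25% of all genes tested) and 150 were lower (0.894%). The groups did not overlap in 252 genes (1.5%), with every Jrt;Sost-het mouse above every WT mouse in 134 (0.799%) and below in 118 (0.703%). Without any difference between groups, a p under 0.05 has a probability of 0.05, and a lack of overlap has one of 0.0286. The share from each tool and the share without overlap were below these. The median log2 fold change (Jrt;Sost-het minus WT, as fitted by edgeR) was 0.0036, and 51.3% of genes were above 0. The median standard error (SE) of the log2 fold change was 0.135, and it was 0.0934 for the 10392 genes with a mean over 10 CPM (counts per 1000000 counts of the scaled library). A fold change over 2 in either direction was estimated for 110 genes, of which 52 were higher and 58 lower. Tested with edgeR in the same way, Jrt;Sost-ko mice differed from WT mice in 1 gene (0.00583%) and from Jrt;Sost-het mice in 1 gene (0.00597%), which was *Sost* both times. Between the Jrt groups the paper, which used DESeq, lists *Colgalt2*, *Tex15*, *Pla1a* and *Pla2g5* besides *Sost* at an adjusted p under 0.05. DESeq2 and limma-voom were not run on the comparisons with Jrt;Sost-ko mice.

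**Figure D1:**
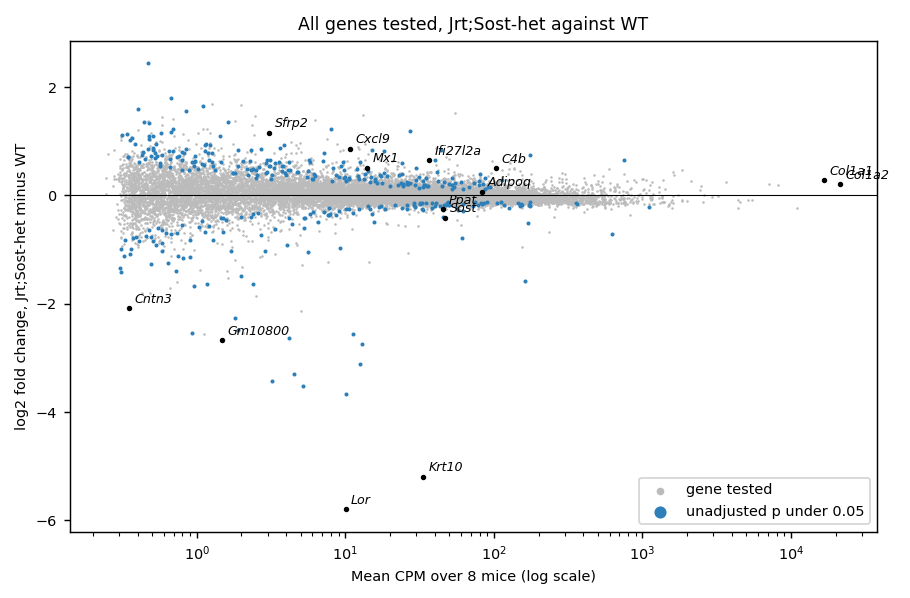
Log2 fold change of each of the 16775 genes tested (Jrt;Sost-het minus WT, n = 4 mice per group) against its mean CPM over the 8 mice on a log axis. Blue points are the 359 genes with an unadjusted p under 0.05, of which none had an adjusted p under 0.05. *Col1a1* and *Col1a2* lie at the right close to 0, and epidermal genes such as *Krt10* and *Lor* lie lowest.

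Markers of bone were present in all 8 mice, and the content of other cells varied between mice of the same group. Total counts on genes were 24366061 to 29431764 in Jrt;Sost-het and 28737276 to 44418863 in WT mice. The osteoblast product *Bglap* (osteocalcin) lay between 327 and 627 CPM, and the osteocyte gene *Dmp1* between 111 and 498 CPM. The summed CPM of 20 skeletal muscle genes was 2888, 7469.6, 11792 and 33836 in Jrt;Sost-het mice 1 to 4 and 3134, 281, 14890.0 and 36092 in WT mice 1 to 4. The 14 epidermal genes summed to 211 and 815 CPM in WT mice 3 and 4 and to 20.6 to 31.0 CPM in the other 6 mice. WT mice 1 and 2 had the lowest sums of collagen, osteoblast and periosteal genes of all 8 mice and the highest sums of genes of dividing cells. With all 8 mice the unadjusted p was under 0.05 in 359 of 16775 genes. It was under 0.05 in 1591 of 16934 genes without WT mouse 4 and in 3408 of 17196 genes without WT mice 3 and 4. Unlike the share with all 8 mice, both of these lay above the 0.05 that holds without a difference between groups. Both fits called 0 genes, with smallest adjusted p-values of 0.525 and 0.114 from edgeR. In bulk RNA, fewer cells of a type and less RNA per cell cannot be told apart. The labels give no sequencing batch.

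**Figure D2:**
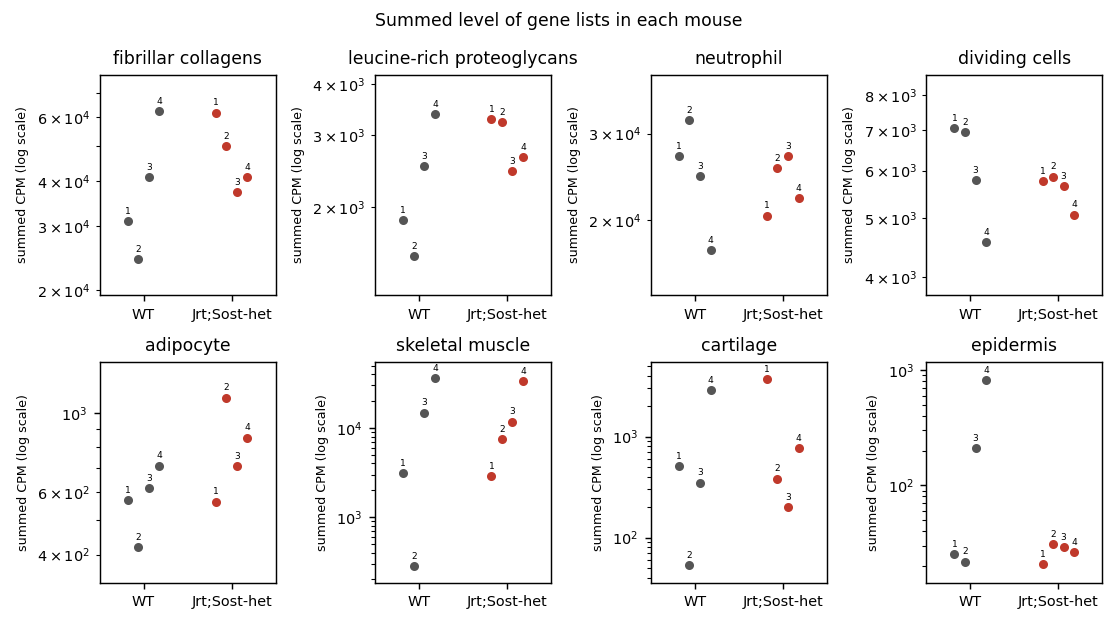
Summed CPM of 8 gene lists in each WT (grey) and Jrt;Sost-het (red) mouse, numbered 1 to 4, on log axes. In the lists of bone matrix genes the 4 Jrt;Sost-het mice lie within the range of the WT mice, in which mice 1 and 2 are lowest and mouse 4 is highest, and the epidermal genes stand out in WT mice 3 and 4 alone.

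*Col1a1*, the gene that carries the Jrt allele (ENSMUSG00000001506, chromosome 11, 94936224 to 94953042), had 24882, 18977, 13653 and 15413 CPM in Jrt;Sost-het mice 1 to 4 and 11599, 8946, 15156 and 24172 CPM in WT mice 1 to 4. The highest Jrt;Sost-het mouse and the highest WT mouse were close to each other, and the ranges overlapped. The means were 18231 ± 4956 CPM and 14968 ± 6642 CPM (SD, n = 4), a fold of 1.21 with a 95% confidence interval of 0.707 to 2.08 (exact permutation test, two-sided p = 0.457). *Col1a2*, the partner chain (chromosome 6, 4504814 to 4541544), had 28431, 24642, 18790 and 20370 CPM in Jrt;Sost-het mice 1 to 4 and 16025, 12513, 20823 and 30411 CPM in WT mice 1 to 4. Its order over the WT mice was that of *Col1a1*. The fold was 1.15 (95% confidence interval 0.714 to 1.86; exact permutation test, two-sided p = 0.486). For *Col1a1* the log2 fold change was 0.28, and it was 0.10 with Jrt;Sost-het mouse 1 left out, 0.10 without WT mouse 2, 0.61 without WT mouse 4 and 0.84 without WT mice 3 and 4.

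The counts of *Col1a1* relative to those of *Col1a2* bear on the balance of the chains. The ratio was 0.875, 0.770, 0.727 and 0.757 in Jrt;Sost-het mice 1 to 4 and 0.724, 0.715, 0.728 and 0.795 in WT mice 1 to 4. The means were 0.782 ± 0.0647 and 0.740 ± 0.0367 (SD, n = 4), and the groups overlapped (exact permutation test, two-sided p = 0.314). This ratio is of counts not scaled for transcript length. Both genes together took 3.30% to 5.38% of all counts in Jrt;Sost-het mice and 2.18% to 5.34% in WT mice.

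*Sost* (ENSMUSG00000001494, chromosome 11, 101962458 to 101967015) served as a check of the genotype. Its levels were 28.1, 34.5, 70.2 and 27.1 CPM in Jrt;Sost-het mice 1 to 4 and 50.2, 72.4, 62.0 and 28.5 CPM in WT mice 1 to 4. Of the Jrt;Sost-het mice, mouse 3 lay among the higher WT mice and the other 3 lay at the level of WT mouse 4. The log2 fold change was -0.41 (SE 0.368), a fold of 0.751 with a 95% confidence interval of 0.419 to 1.34 (exact permutation test, two-sided p = 0.343). This interval includes 1 and also the fold that expression in proportion to the number of intact alleles would give. The check therefore does not settle the genotype.

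Genes of the collagen pathway were mostly higher in Jrt;Sost-het mice by small amounts that did not exceed the spread between mice. All 10 fibrillar collagen genes had a log2 fold change above 0, with a median of 0.30, and none had an unadjusted p under 0.05. Over all genes tested, 51.3% were above 0. The members of a list varied together between mice, so that they are not replicates. The largest was that of *Col3a1*, a collagen of soft connective tissue and vessels, at a log2 fold change of 0.47 (SE 0.402), with 1597 to 2913 CPM in Jrt;Sost-het and 749 to 2679 CPM in WT mice. *Col5a3* and *Col11a2*, minor chains of the type V and type XI fibrils, had log2 fold changes of 0.31 (SE 0.221) and 0.31 (SE 0.298). The list had a median log2 fold change of 0.10 with Jrt;Sost-het mouse 1 left out, 0.15 without WT mouse 2 and 0.81 without WT mice 3 and 4.

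Of the genes that fold and modify collagen, 18 of 20 were above 0, with a median log2 fold change of 0.21 and 0 with an unadjusted p under 0.05. *Serpinh1*, the collagen chaperone HSP47, had 801, 549.7, 455 and 510 CPM in Jrt;Sost-het mice 1 to 4 and 342, 315, 533 and 749.6 CPM in WT mice 1 to 4. WT mice 1 and 2 were lowest and Jrt;Sost-het mouse 1 was highest, and the groups overlapped. *Colgalt1*, which adds galactose to hydroxylysine, had the smallest unadjusted p of the list, with a log2 fold change of 0.19 (SE 0.0878). The lysyl hydroxylases *Plod1* and *Plod3* had log2 fold changes of 0.22 (SE 0.191) and 0.14 (SE 0.0724). *P3h1* and *Crtap*, partners in prolyl 3-hydroxylation, and *Fkbp10*, a prolyl isomerase, are mutated in recessive osteogenesis imperfecta, and their log2 fold changes were 0.21, 0.12 and 0.27 with SEs of 0.288, 0.197 and 0.296. *Sparc* (osteonectin), the member with the highest CPM, had 6400 to 9181 CPM in Jrt;Sost-het and 4179 to 9901 CPM in WT mice. Without WT mouse 2 the median log2 fold change of these genes was 0.09, without WT mouse 4 it was 0.47 and without WT mice 3 and 4 it was 0.70.

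All 16 tested genes of procollagen export, cleavage and crosslinking were above 0, with a median log2 fold change of 0.19, 0 with an unadjusted p under 0.05 and 1 further member, *Mia2*, too low to test. The lysyl oxidases *Lox*, *Loxl1* and *Loxl2*, which crosslink collagen, had log2 fold changes of 0.30 (SE 0.279), 0.20 (SE 0.151) and 0.28 (SE 0.198). *Pcolce*, which enhances cleavage of the C-propeptide, had a log2 fold change of 0.23 (SE 0.300), and *Adamts2*, which removes the N-propeptide, had 0.20 (SE 0.176). Without WT mouse 2 the median log2 fold change of this list was 0.05, and without WT mice 3 and 4 it was 0.58.

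Genes of the endoplasmic reticulum stress response, which misfolded collagen can engage, had a median log2 fold change near 0. Of the 27 genes, 18 were above 0, with a median log2 fold change of 0.01 and 0 with an unadjusted p under 0.05. The median was -0.01 without Jrt;Sost-het mouse 3. *Trib3*, a pseudokinase induced late in the response, had a log2 fold change of 0.31 (SE 0.211), and *Chac1*, which degrades glutathione, had one of -0.15 (SE 0.420). *Hspa5*, the chaperone BiP, had 495, 517, 606 and 522 CPM in Jrt;Sost-het mice 1 to 4 and 500.4, 477, 542 and 483 CPM in WT mice 1 to 4. Jrt;Sost-het mouse 3 was highest and the other 3 lay within the range of the WT mice. Its fold was 1.07 (95% confidence interval 0.929 to 1.23). The chaperone *Hsp90b1* had a log2 fold change of 0.10 (SE 0.0727), and *Pdia4*, a disulfide isomerase, had 0.15 (SE 0.0768). For *Ddit3* (CHOP), a transcription factor of prolonged stress, the levels were 20.4, 22.9, 21.2 and 22.0 CPM in Jrt;Sost-het mice 1 to 4 and 22.0, 21.3, 20.8 and 20.4 CPM in WT mice 1 to 4. All 8 values were close to each other, and the fold of 1.02 had a 95% confidence interval of 0.926 to 1.13. The intervals of *Atf4* and of *Xbp1*, transcription factors of the same response, were 0.952 to 1.11 and 0.925 to 1.15 as fold.

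**Figure D3:**
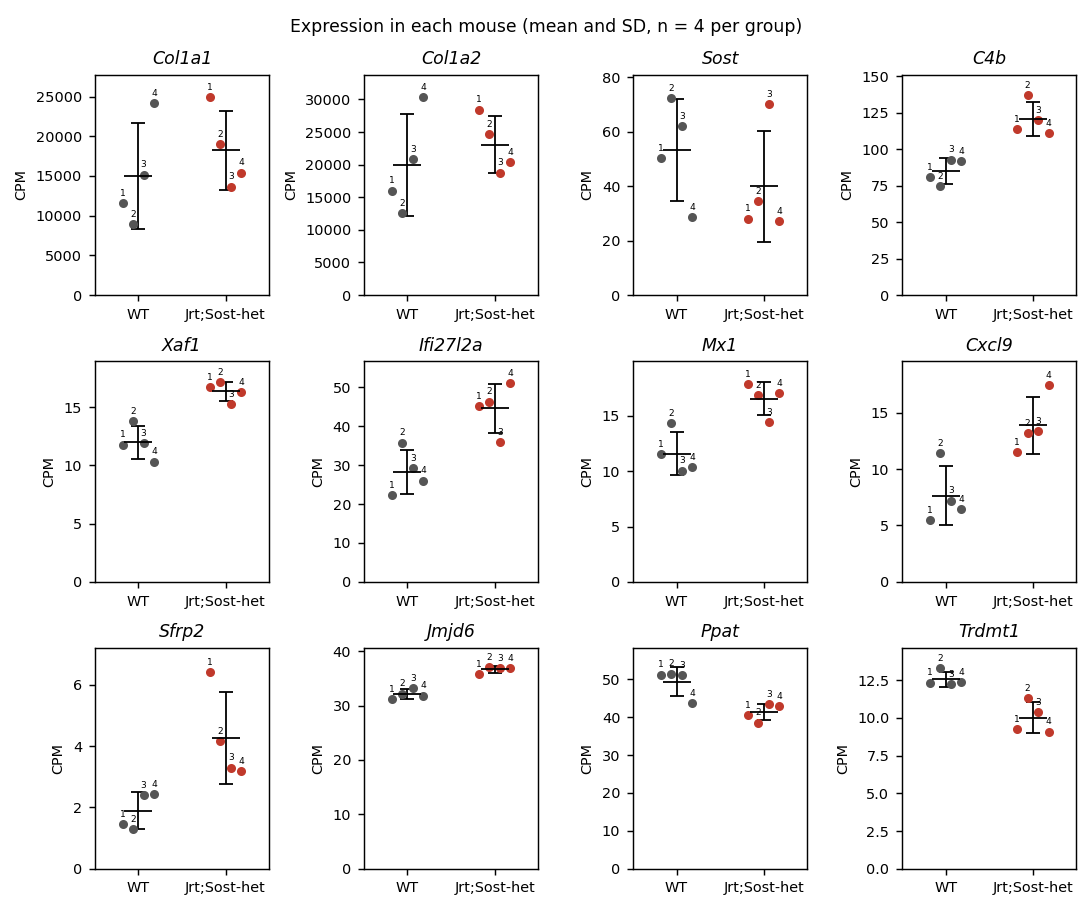
CPM of 12 genes in each WT (grey) and Jrt;Sost-het (red) mouse, numbered 1 to 4, with the mean and SD of the group (n = 4). The groups overlap for *Col1a1*, *Col1a2* and *Sost* and do not overlap for the other 9 genes, which are among the 10 with the smallest p in their direction and of which none passed the adjusted threshold.

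Markers of osteoblasts, the cells that make bone matrix, were above 0 in all 15 genes, with a median log2 fold change of 0.18 and 0 with an unadjusted p under 0.05. *Bglap* and *Bglap2*, the osteocalcin genes, had log2 fold changes of 0.27 (SE 0.210) and 0.27 (SE 0.203). They are near-identical copies, so that their counts may be split between them. For *Bglap* the levels were 499, 626, 479 and 579 CPM in Jrt;Sost-het mice 1 to 4 and 327, 361, 494 and 627 CPM in WT mice 1 to 4. WT mice 1 and 2 lay lowest, and the 4 Jrt;Sost-het mice lay within the range of the WT mice. *Spp1* (osteopontin) and *Ibsp* (bone sialoprotein), mineral-binding matrix proteins, had log2 fold changes of 0.11 (SE 0.308) and 0.16 (SE 0.314). The transcription factors *Runx2* and *Sp7*, which commit cells to the lineage, had log2 fold changes of 0.08 (SE 0.0923) and 0.20 (SE 0.251). Without WT mouse 2 the list had a median log2 fold change of 0.06, and without WT mice 3 and 4 it was 0.64.

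Osteocyte genes and genes of mineralization had medians nearer to 0. Of 12 osteocyte genes 8 were above 0, with a median log2 fold change of 0.05 that was -0.15 without WT mouse 2 and 0.47 without WT mice 3 and 4. *Dmp1*, a matrix phosphoprotein, had 447, 248, 157 and 254 CPM in Jrt;Sost-het mice 1 to 4 and 239, 111, 197 and 498 CPM in WT mice 1 to 4. The highest and the lowest value were both those of WT mice. *Phex* and *Fgf23*, which regulate phosphate, had log2 fold changes of 0.11 (SE 0.333) and -0.37 (SE 0.454), and *Fgf23* was under 1 CPM in every mouse. *Fbln7* had the largest log2 fold change of the list, 0.76 (SE 0.515). *Mepe*, another phosphoprotein of osteocytes, had a log2 fold change of 0.06 (SE 0.151). Of 12 tested genes of mineralization and phosphate transport 9 were above 0 (median log2 fold change 0.08), where *Alpl*, the alkaline phosphatase, had a log2 fold change of 0.18 (SE 0.267) and *Phospho1*, a phosphatase of matrix vesicles, had 0.18 (SE 0.201). The median log2 fold change of the mineralization genes was -0.06 without Jrt;Sost-het mouse 1, -0.04 without WT mouse 2 and 0.28 without WT mouse 4. Neither list held a gene with an unadjusted p under 0.05.

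The small leucine-rich proteoglycans, which bind collagen fibrils and control their diameter, were above 0 in all 10 genes, with a median log2 fold change of 0.35. It was 0.21 without WT mouse 2 and 0.82 without WT mice 3 and 4. *Ogn* (osteoglycin) had 90.0, 97.2, 82.9 and 90.7 CPM in Jrt;Sost-het mice 1 to 4 and 58.7, 50.4, 79.3 and 96.0 CPM in WT mice 1 to 4. WT mice 1 to 3 were below every Jrt;Sost-het mouse, and WT mouse 4 was above all of them except mouse 2. *Aspn* (asporin) had a log2 fold change of 0.60 (SE 0.392). *Kera* (keratocan) had the largest log2 fold change, 1.40 (SE 0.831), with 2.96 to 17.6 CPM in Jrt;Sost-het and 0.445 to 8.64 CPM in WT mice. *Dcn* (decorin) and *Bgn* (biglycan), the members with the highest CPM, had log2 fold changes of 0.28 (SE 0.213) and 0.27 (SE 0.238). None of the 10 had an unadjusted p under 0.05.

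Genes of the periosteum and of tendon, the outer layer of the shaft and its attachments, were above 0 in 11 of 12, with a median log2 fold change of 0.31. *Postn* (periostin) had a log2 fold change of 0.37 (SE 0.4002), *Tnc* (tenascin C) had 0.23 (SE 0.210), *Thbs2* and *Thbs4*, thrombospondins of connective tissue, had 0.47 (SE 0.406) and 0.57 (SE 0.517), and *Tnmd* (tenomodulin), a tendon marker, had 0.89 (SE 0.675). The summed CPM of the list was 3053, 2508, 2194 and 1785 in Jrt;Sost-het mice 1 to 4 and 1313, 1053, 2138 and 3205 in WT mice 1 to 4. WT mice 1 and 2 were lowest and WT mouse 4 was highest. The median log2 fold change was 0.08 without WT mouse 2 and 1.28 without WT mice 3 and 4. How much periosteum each dissected shaft held was not tested.

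Osteoclast genes, which mark the cells that resorb bone, were above 0 in 3 of 16, with a median log2 fold change of -0.06 and 0 with an unadjusted p under 0.05. *Ctsk* (cathepsin K), the main collagen-degrading protease of osteoclasts, had 802, 494, 675 and 498 CPM in Jrt;Sost-het mice 1 to 4 and 618, 295, 628 and 941 CPM in WT mice 1 to 4. WT mouse 2 was lowest and WT mouse 4 highest, with all Jrt;Sost-het mice between them. *Acp5*, which encodes the TRAP enzyme used as a serum marker of resorption, had a log2 fold change of -0.06 (SE 0.383). *Mmp9* had a log2 fold change of -0.01 (SE 0.121) and *Car2*, the carbonic anhydrase that supplies acid for resorption, had -0.12 (SE 0.196). *Tcirg1*, a subunit of the proton pump, and *Ostm1*, which stabilises the chloride channel of these cells, had log2 fold changes of 0.15 (SE 0.0999) and -0.07 (SE 0.0656), and *Calcr*, the calcitonin receptor, had 0.58 (SE 0.443) at under 3 CPM. The list had a median log2 fold change of 0.17 without WT mice 3 and 4, and it was also positive when WT mouse 4 (0.09) or Jrt;Sost-het mouse 4 (0.03) was left out.

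The signals that control osteoclast formation had a median log2 fold change of -0.05, with 3 of 6 above 0. *Tnfsf11* (RANKL), which drives it, had a log2 fold change of -0.14 (SE 0.257) and *Tnfrsf11b* (osteoprotegerin), the decoy receptor of RANKL, had -0.14 (SE 0.192). *Csf1*, its receptor *Csf1r* and the other ligand of that receptor, *Il34*, had log2 fold changes of 0.04 (SE 0.0731), 0.05 (SE 0.125) and 0.27 (SE 0.146). Without WT mouse 4 the median log2 fold change of these signals was 0.07.

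Among the secreted Wnt antagonists, the class to which sclerostin belongs, *Sfrp2* had the largest difference. *Sfrp2* (chromosome 3, 83766321 to 83774316), a secreted protein that binds Wnt ligands, had 6.41, 4.16, 3.30 and 3.18 CPM in Jrt;Sost-het mice 1 to 4 and 1.46, 1.300, 2.40 and 2.44 CPM in WT mice 1 to 4. Every Jrt;Sost-het mouse was above every WT mouse, and mouse 1 was highest. The fold was 2.23 (95% confidence interval 1.37 to 3.64), with an adjusted p of 1 from edgeR. The exact permutation test gave a two-sided p of 0.0286, the smallest that 4 against 4 mice allow. As *Sfrp2* is also among the genes chosen by their small p, this permutation p is no separate evidence. *Dkk2*, which binds Lrp5 and Lrp6, had 6.10, 7.44, 4.99 and 7.58 CPM in Jrt;Sost-het mice 1 to 4 and 5.17, 3.49, 4.93 and 5.48 CPM in WT mice 1 to 4, a log2 fold change of 0.45 (SE 0.194). The value of Jrt;Sost-het mouse 3 lay inside the range of the WT mice. These 2 of the 12 antagonists had an unadjusted p under 0.05, and the background over all genes was 2.14%.

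Of the 12 antagonists 9 were above 0, with a median log2 fold change of 0.15, which was -0.04 without WT mouse 2 and 0.76 without WT mice 3 and 4. *Sfrp1* had a log2 fold change of 0.18 (SE 0.154). *Dkk1*, an antagonist made by osteoblasts and osteocytes, had a log2 fold change of -0.09 (SE 0.308), with 11.2 to 20.4 CPM in Jrt;Sost-het and 9.58 to 26.8 CPM in WT mice. *Notum*, an enzyme that inactivates Wnt ligands, had a log2 fold change of 0.30 (SE 0.497). *Wif1* and *Sfrp4*, with the highest CPM, had log2 fold changes of 0.07 (SE 0.204) and 0.11 (SE 0.199).

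The receptors and targets of the pathway had no gene with an unadjusted p under 0.05. Of 16 tested receptor genes 10 were above 0 (median log2 fold change 0.08), and the coreceptor *Lrp5* had 78.6, 85.5, 83.8 and 76.5 CPM in Jrt;Sost-het mice 1 to 4 and 73.4, 61.4, 81.3 and 86.7 CPM in WT mice 1 to 4, a fold of 1.07 (95% confidence interval 0.903 to 1.27). *Lrp4*, which anchors sclerostin, had a log2 fold change of -0.02 (SE 0.176), and *Kremen2* and *Fzd10* were too low to test. For the receptors the median log2 fold change was -0.01 with Jrt;Sost-het mouse 1 left out, -0.05 with WT mouse 2 left out and 0.19 with WT mouse 4 left out. Of 12 tested Wnt target genes 4 were above 0 (median log2 fold change -0.05). *Axin2*, a feedback inhibitor that Wnt signalling induces in many tissues, had 5.99, 5.17, 4.39 and 6.79 CPM in Jrt;Sost-het mice 1 to 4 and 3.81, 4.17, 6.17 and 8.50 CPM in WT mice 1 to 4. The Jrt;Sost-het mice lay within the range of the WT mice, and the fold was 0.982 (95% confidence interval 0.635 to 1.52). *Lef1*, a transcription factor of the pathway, had a log2 fold change of -0.10 (SE 0.137), *Myc* had -0.11 (SE 0.0640) and *Twist1* had 0.23 (SE 0.191). *Rnf43*, which removes Wnt receptors from the surface, had 3.98, 3.21, 3.60 and 2.35 CPM in Jrt;Sost-het mice 1 to 4 and 4.13, 4.28, 4.06 and 4.43 CPM in WT mice 1 to 4. Every Jrt;Sost-het mouse was below every WT mouse, with a log2 fold change of -0.36 (SE 0.173). The median log2 fold change of the targets was positive without WT mouse 4 (0.14), without WT mice 3 and 4 (0.27) and in limma-voom (0.03).

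TGF-beta is stored in bone matrix and released when matrix is resorbed, and excess TGF-beta signalling has been described in models of osteogenesis imperfecta. Of 19 tested genes 15 were above 0, with a median log2 fold change of 0.07 and 0 with an unadjusted p under 0.05. The ligands *Tgfb1* and *Tgfb2* had log2 fold changes of 0.03 (SE 0.0970) and -0.01 (SE 0.243). *Ctgf*, *Thbs1* and *Pmepa1*, genes that TGF-beta induces, had log2 fold changes of 0.00 (SE 0.369), 0.14 (SE 0.107) and 0.33 (SE 0.227). *Ltbp1*, which holds latent TGF-beta in the matrix, had a log2 fold change of 0.15 (SE 0.0801). The TGF-beta genes had a median log2 fold change of 0.005 without Jrt;Sost-het mouse 1 and of 0.15 without WT mouse 4.

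The BMP and IGF pathways and the matrix metalloproteinases also had no gene with an unadjusted p under 0.05. Of 19 BMP genes 14 were above 0 (median log2 fold change 0.07), among them the ligand *Bmp4* at a log2 fold change of 0.11 (SE 0.118), the antagonists *Chrd* and *Fst* at 0.31 (SE 0.264) and 0.20 (SE 0.122) and the target *Id3* at 0.13 (SE 0.220). Of 10 IGF genes 7 were above 0 (median log2 fold change 0.06). *Igf1*, a growth factor for bone, had 96.5, 90.0, 69.4 and 72.7 CPM in Jrt;Sost-het mice 1 to 4 and 57.2, 47.5, 66.3 and 81.3 CPM in WT mice 1 to 4. WT mouse 4 lay inside the range of the Jrt;Sost-het mice and WT mice 1 to 3 lay below it, with a log2 fold change of 0.38 (SE 0.177). *Igf2* had a log2 fold change of -0.20 (SE 0.269). Of 14 metalloproteinases and inhibitors 12 were above 0 (median log2 fold change 0.12), with *Mmp13*, the collagenase of osteoblasts and cartilage, at a log2 fold change of 0.01 (SE 0.436), *Mmp3* (stromelysin) at 0.98 (SE 0.625) and the inhibitor *Timp3* at -0.15 (SE 0.0830). Leaving out 1 mouse gave median log2 fold changes from -0.05 (without WT mouse 2) to 0.20 (without WT mouse 4) for the BMP genes, from 0.02 (without WT mouse 1) to 0.15 (without WT mouse 4) for the IGF genes and from -0.03 (without WT mouse 2) to 0.30 (without WT mouse 4) for the metalloproteinases and inhibitors.

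**Figure D4:**
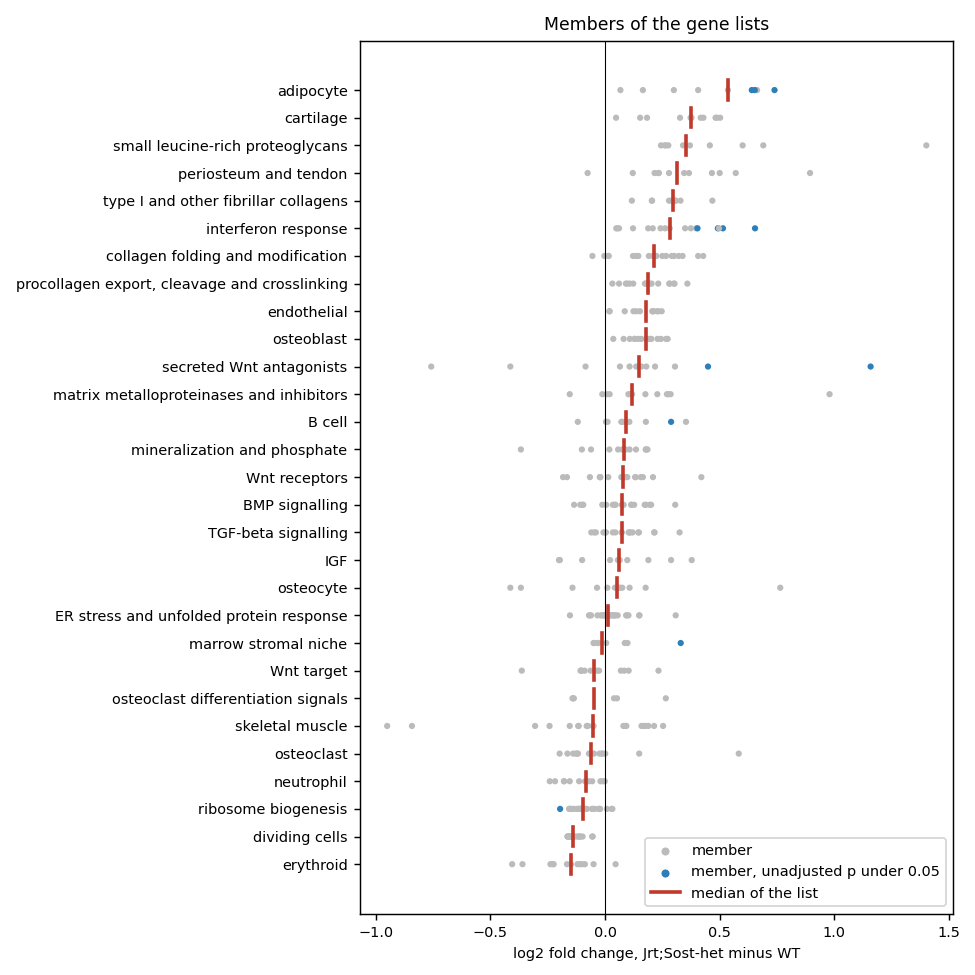
Log2 fold change (Jrt;Sost-het minus WT) of each tested member of 29 gene lists, with the median of each list as a red bar. Blue points are members with an unadjusted p under 0.05, and no member had an adjusted p under 0.05. Adipocyte genes have the highest median of the 29 lists, 0.54, and erythroid genes the lowest, -0.15. Epidermal genes, with a median of -2.65, are not drawn.

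The gene with the smallest p was *C4b* (ENSMUSG00000073418, chromosome 17, 34728380 to 34743882), which encodes complement component C4. Its levels were 114, 137, 120.1 and 111 CPM in Jrt;Sost-het mice 1 to 4 and 80.8, 74.9, 93.0 and 92.1 CPM in WT mice 1 to 4. Every Jrt;Sost-het mouse was above every WT mouse. The fold was 1.41 with a 95% confidence interval of 1.21 to 1.65 (exact permutation test, two-sided p = 0.0286, the smallest possible; adjusted p = 1 from edgeR and 0.0584 from DESeq2). *C4b* was chosen by its p in these mice, and the permutation p restates the lack of overlap, so that it is no separate evidence. Over all alternatives the log2 fold change of *C4b* lay between 0.43 and 0.64. *Cfb*, complement factor B, had 2.81, 4.70, 3.08 and 3.35 CPM in Jrt;Sost-het mice 1 to 4 and 2.202, 1.23, 2.15 and 2.05 CPM in WT mice 1 to 4, also without overlap, and a log2 fold change of 0.86 (SE 0.244). It was chosen after its values were seen, so that its lack of overlap, which 1.5% of all genes showed, is no separate evidence. Complement genes as a set were not tested.

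Of the 10 genes with the smallest p among those higher in Jrt;Sost-het mice, *Xaf1*, *Ifi27l2a* and *Mx1* are known to be induced by interferon, and *Cxcl9* is a chemokine induced by interferon gamma. *Mx1* (chromosome 16, 97447035 to 97462907), an antiviral GTPase, had 17.9, 16.9, 14.4 and 17.1 CPM in Jrt;Sost-het mice 1 to 4 and 11.6, 14.4, 10.1 and 10.4 CPM in WT mice 1 to 4. WT mouse 2 lay just under the lowest Jrt;Sost-het mouse, and the fold was 1.43 (95% confidence interval 1.17 to 1.75). *Xaf1* (chromosome 11, 72301629 to 72313733) had 16.7, 17.2, 15.3 and 16.3 CPM in Jrt;Sost-het mice 1 to 4 and 11.8, 13.8, 11.9 and 10.3 CPM in WT mice 1 to 4, a fold of 1.37 (95% confidence interval 1.17 to 1.60). *Ifi27l2a* (chromosome 12, 103442167 to 103443680) had 45.2, 46.3, 35.9 and 51.0 CPM in Jrt;Sost-het mice 1 to 4 and 22.4, 35.8, 29.2 and 26.0 CPM in WT mice 1 to 4. Here WT mouse 2 and Jrt;Sost-het mouse 3 were nearly equal, and the fold was 1.57 (95% confidence interval 1.23 to 2.02). *Cxcl9* (chromosome 5, 92321347 to 92328079) had 11.5, 13.2, 13.4 and 17.5 CPM in Jrt;Sost-het mice 1 to 4 and 5.44, 11.4, 7.20 and 6.48 CPM in WT mice 1 to 4, a fold of 1.82 (95% confidence interval 1.25 to 2.65). In all 4 genes WT mouse 2 was the highest WT mouse, and none of the groups overlapped. The 4 genes were picked for their small p, and groups were likewise separate in 1.5% of all genes. Neither this separation nor the intervals add evidence, and none of the 4 was called at an adjusted p under 0.05. *Cxcl10*, a related chemokine, had a log2 fold change of 0.87 (SE 0.267), with WT mouse 2 inside the range of the Jrt;Sost-het mice.

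All 17 genes of an interferon response list, which holds *Mx1*, had a log2 fold change above 0, with a median of 0.28. The unadjusted p was under 0.05 in 4 of the 17, *Mx1*, *Mx2*, *Ifit1* and *Ifit3*, against 2.14% of all genes. The groups did not overlap in 2 of the 17, *Mx1* and *Ifit1*, against 1.5% of all genes. *Ifit1*, which binds viral RNA, had 16.4, 13.5, 12.8 and 12.9 CPM in Jrt;Sost-het mice 1 to 4 and 9.55, 12.6, 10.3 and 7.09 CPM in WT mice 1 to 4. The lowest value was that of WT mouse 4, and WT mouse 2 was close to the lowest Jrt;Sost-het mice. The log2 fold changes were 0.49 (SE 0.172) for *Ifit1*, 0.40 (SE 0.168) for *Ifit3* and 0.65 (SE 0.225) for *Mx2*. *Isg15*, a ubiquitin-like protein and a common marker of the response, had 65.8, 76.9, 46.2 and 47.9 CPM in Jrt;Sost-het mice 1 to 4 and 56.8, 63.4, 51.9 and 33.2 CPM in WT mice 1 to 4. The groups overlapped widely, with a log2 fold change of 0.21 (SE 0.224). *Rsad2*, an antiviral enzyme, had a log2 fold change of 0.06 (SE 0.233). The list had a median log2 fold change of 0.09 without WT mice 3 and 4, 0.13 without WT mouse 4 and 0.51 without WT mouse 2. WT mice 3 and 4 also held the epidermal transcripts, whose part in this result was not tested.

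Interferon-stimulated genes share a promoter element through which interferon signalling acts. The letters GAAA, any 2 bases and GAAA, searched on either strand with overlapping matches counted, occur in the 250 bases before the start of 7 of the 11 list genes for which RefSeq (GRCm38.p6) gave a promoter (63.6%), against 978 of 32851 promoters of all genes (2.98%). The stretches of *Ifit1* and *Ifit3*, the members with a small p that hold it, are shown with the matching letters in capitals, read on the opposite strand as TTTC, any 2 bases and TTTC.
Ifit1, chr19:34640775-34640823, plus strand: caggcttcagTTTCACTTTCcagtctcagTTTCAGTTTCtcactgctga
Ifit3, chr19:34583363-34583426, plus strand: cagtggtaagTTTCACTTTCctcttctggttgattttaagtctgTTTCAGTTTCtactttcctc
The matches of *Ifit1* begin 104 and 85 bases before the annotated start, and those of *Ifit3* begin 156 and 122 bases before it. The other 5 list genes that hold the letters were *Oas1a*, *Bst2*, *Isg15*, *Stat2* and *Rsad2*, with log2 fold changes of 0.50, 0.26, 0.21, 0.12 and 0.06. *Mx1* and *Mx2* are not among the 7, and whether they are among the 11 with a promoter to search is not reported here. The 7 of 11 are genes, whereas the 978 of 32851 are promoter sequences. The list was written from genes known to respond to interferon, so that its share says nothing about these mice. The match describes the sequence only.

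The other genes among the 10 with the smallest p that were higher in Jrt;Sost-het mice were *Sfrp2*, *Igkv14-126*, *Jmjd6*, *A930017M01Rik* and *Lime1*. *Jmjd6* (chromosome 11, 116837432 to 116843449), a hydroxylase of the cell nucleus, had 35.8, 37.1, 36.9 and 36.8 CPM in Jrt;Sost-het mice 1 to 4 and 31.1, 32.2, 33.3 and 31.8 CPM in WT mice 1 to 4. The values within each group were close, and the fold was 1.14 (95% confidence interval 1.05 to 1.24). *Igkv14-126* (chromosome 6, 67896172 to 67896642), an immunoglobulin light chain variable segment, had 1.02, 1.83, 3.49 and 2.97 CPM in Jrt;Sost-het mice 1 to 4 and 0.816, 1.06, 0.897 and 0.858 CPM in WT mice 1 to 4, and Jrt;Sost-het mouse 1 lay inside the range of the WT mice. *Lime1*, an adaptor protein of lymphocytes (chromosome 2, 181380078 to 181383628), and the pseudogene *A930017M01Rik* (chromosome 15, 44752280 to 44884740) were under 2 CPM in every mouse, with folds of 1.72 and 1.74.

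Of the 10 genes with the smallest p that were lower in Jrt;Sost-het mice, 3 had means over 5 CPM. *Ppat* (chromosome 5, 76913249 to 76951578), the enzyme that opens purine synthesis, had 40.6, 38.5, 43.5 and 42.8 CPM in Jrt;Sost-het mice 1 to 4 and 51.2, 51.5, 51.0 and 43.7 CPM in WT mice 1 to 4. WT mouse 4 lay just above Jrt;Sost-het mouse 3 and the other WT mice lay well above, with a fold of 0.838 (95% confidence interval 0.750 to 0.935). *Trdmt1* (chromosome 2, 13509014 to 13544668), a methyltransferase of tRNA, had 9.25, 11.3, 10.4 and 9.09 CPM in Jrt;Sost-het mice 1 to 4 and 12.3, 13.3, 12.2 and 12.4 CPM in WT mice 1 to 4, a fold of 0.795 (95% confidence interval 0.682 to 0.927). *Dnph1* (chromosome 17, 46496711 to 46499624), a nucleotide hydrolase, had 7.09, 5.78, 7.28 and 6.83 CPM in Jrt;Sost-het mice 1 to 4 and 8.54, 9.24, 8.86 and 8.14 CPM in WT mice 1 to 4, a fold of 0.775 (95% confidence interval 0.653 to 0.920). None of the 3 overlapped between groups, which is no separate evidence in genes chosen by their p.

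The other 7 had means of at most 3.01 CPM in either group. *A130071D04Rik* (chromosome 1, 138161820 to 138167683), a transcript the annotation leaves unclassified, had 1.25, 1.25, 0.751 and 1.22 CPM in Jrt;Sost-het mice 1 to 4 and 2.72, 2.43, 2.04 and 1.94 CPM in WT mice 1 to 4, without overlap. *Myo5b*, a myosin that moves vesicles, had 1.10, 1.35, 1.13 and 1.05 CPM in Jrt;Sost-het mice 1 to 4 and 2.202, 1.75, 1.57 and 1.88 CPM in WT mice 1 to 4, again without overlap and with a fold of 0.626 (95% confidence interval 0.475 to 0.826). *Gm10800* (chromosome 2, 98666547 to 98667301) and *Ly6g6c* (chromosome 17, 35065388 to 35070050) were highest in WT mouse 4, the mouse with the most epidermal transcripts, at 6.09 and 6.98 CPM. Without WT mice 3 and 4 the log2 fold change of *Ly6g6c* was -0.95 in place of -2.27. *Cntn3* (chromosome 6, 102162655 to 102573101), a neural adhesion protein, *Hist1h4f* (chromosome 13, 23551258 to 23551648), a histone H4 gene, and the pseudogene *Gm16372* (chromosome 12, 24493207 to 24493656) had log2 fold changes of -2.08 (SE 0.529), -1.12 (SE 0.261) and -1.35 (SE 0.299). *Hist1h4f* has near-identical copies, so that its counts are uncertain.

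Fat cell genes were above 0 in all 9 genes, with the highest median log2 fold change of the 30 lists, 0.54, and an unadjusted p under 0.05 in 3 of the 9, *Plin1*, *Cfd* and *Retn*, against 2.14% of all genes. *Plin1* (perilipin), which coats lipid droplets, had 34.2, 64.1, 43.9 and 55.6 CPM in Jrt;Sost-het mice 1 to 4 and 22.3, 24.2, 39.4 and 39.5 CPM in WT mice 1 to 4. Jrt;Sost-het mouse 1 lay under WT mice 3 and 4, and the other 3 lay above every WT mouse. The fold was 1.57 (95% confidence interval 1.05 to 2.36). *Cfd* (adipsin), a secreted protease of the alternative complement pathway, had 166, 340.2, 158 and 207 CPM in Jrt;Sost-het mice 1 to 4 and 137, 76.8, 129.9 and 177 CPM in WT mice 1 to 4, with mouse 2 highest. Its log2 fold change was 0.74 (SE 0.307), and that of *Retn* (resistin) was 0.64 (SE 0.267). *Fabp4*, which carries fatty acids, had a log2 fold change of 0.41 (SE 0.248). *Adipoq* (adiponectin) had 76.8, 90.5, 93.5 and 79.3 CPM in Jrt;Sost-het mice 1 to 4 and 81.0, 80.5, 78.5 and 84.6 CPM in WT mice 1 to 4. The groups overlapped, and the fold of 1.05 had a 95% confidence interval of 0.932 to 1.18, below the estimates of *Plin1* and *Cfd*. Without Jrt;Sost-het mouse 2 the list had a median log2 fold change of 0.23, and without WT mice 3 and 4 it was 0.85.

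Genes of marrow and vessel cells were detected in the flushed shafts. Neutrophil genes were above 0 in 0 of 14, with a median log2 fold change of -0.08, and erythroid genes in 1 of 13, with a median of -0.15. *Prtn3*, a granule protease of early neutrophils, had a log2 fold change of -0.24 (SE 0.121), and the haemoglobin genes *Hba-a1* and *Hbb-bs* had -0.24 (SE 0.212) and -0.22 (SE 0.231). Haemoglobin genes are near-identical copies whose counts may be split. The median log2 fold change of the neutrophil genes was 0.06 without WT mouse 2 and -0.30 without WT mice 3 and 4. That of the erythroid genes was between -0.28 (without WT mouse 4) and -0.02 (without WT mouse 1) with 1 mouse left out.

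B cell genes were above 0 in 11 of 12 (median log2 fold change 0.09). *Cd79a*, a part of the B cell receptor, had a log2 fold change of 0.09 (SE 0.110). Endothelial genes were above 0 in all 12 (median log2 fold change 0.18), with *Esam* at a log2 fold change of 0.21 (SE 0.0966) and *Pecam1* at 0.12 (SE 0.0931). Of 8 genes of the marrow stromal niche 4 were above 0 (median log2 fold change -0.01). *Ebf3*, a transcription factor of stromal cells, had 32.9, 36.8, 45.9 and 39.6 CPM in Jrt;Sost-het mice 1 to 4 and 31.8, 33.1, 30.03 and 28.5 CPM in WT mice 1 to 4. The lowest Jrt;Sost-het mouse lay just under WT mouse 2, and the fold was 1.26 (95% confidence interval 1.07 to 1.48). *Cxcl12*, the chemokine that defines these cells, had a log2 fold change of -0.03 (SE 0.176).

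Genes of dividing cells were below 0 in all 18 genes, with a median log2 fold change of -0.14 and 0 with an unadjusted p under 0.05. *Mki67*, a marker of proliferation, had 1554 to 1970 CPM in Jrt;Sost-het and 1433 to 2284 CPM in WT mice. WT mice 1 and 2 were above every Jrt;Sost-het mouse and WT mouse 4 was below every one. *Top2a* and *Tyms* had log2 fold changes of -0.10 (SE 0.125) and -0.16 (SE 0.108). The median log2 fold change was -0.06 without WT mouse 2 and -0.32 without WT mice 3 and 4. Of 27 genes of ribosome biogenesis 3 were above 0 (median log2 fold change -0.10, between -0.13 and -0.06 over the alternatives). *Utp20*, which processes the small ribosomal subunit, had 37.5, 38.1, 39.8 and 35.3 CPM in Jrt;Sost-het mice 1 to 4 and 41.4, 46.8, 43.6 and 40.6 CPM in WT mice 1 to 4. Every Jrt;Sost-het mouse was below every WT mouse, and the fold was 0.873 (95% confidence interval 0.788 to 0.968). *Ncl* (nucleolin) and *Npm1* (nucleophosmin) had log2 fold changes of -0.14 (SE 0.0959) and -0.15 (SE 0.0874).

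Muscle, cartilage and epidermis gave the widest spread between mice. Of the 20 muscle genes 9 were above 0 (median log2 fold change -0.05), with SEs over 1 for 19 of them. *Myh4*, a fast myosin, ranged from 459 to 5925 CPM in Jrt;Sost-het and from 24.0 to 6705 CPM in WT mice. Leaving out Jrt;Sost-het mouse 4 gave a median log2 fold change of -0.92, and leaving out WT mice 3 and 4 gave 3.06. Cartilage genes were above 0 in all 11 (median log2 fold change 0.38), and *Col2a1*, the collagen of cartilage, had 2088, 184, 87.1 and 403 CPM in Jrt;Sost-het mice 1 to 4 and 260.4, 39.6, 133 and 1529 CPM in WT mice 1 to 4. Jrt;Sost-het mouse 1 and WT mouse 4 were far above the others, and the list had a median log2 fold change of -1.13 without the former and 2.26 without the latter. The epidermal genes were below 0 in all 8 tested, 5 of them with an unadjusted p under 0.05, against 2.14% of all genes. *Krt10*, a keratin of the upper epidermis, had 1.52, 2.03, 1.501 and 2.095 CPM in Jrt;Sost-het mice 1 to 4 and 1.34, 1.40, 48.6 and 208 CPM in WT mice 1 to 4, and WT mice 3 and 4 alone were high. Without these 2 mice the list had a median log2 fold change of 0.23 in place of -2.65. The keratins *Krt5* and *Krt14*, which define basal epidermis and were too low in most mice to be tested, reached at most 0.300 and 0.1501 CPM in Jrt;Sost-het mice and 109 and 84.1 CPM in WT mice.

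*Col1a1* and *Sost* lie 7009416 bp apart on chromosome 11, and the paper describes them as closely linked. By the paper, the chromosome with both mutant alleles arose through recombination between these loci. Which alleles of the genes between them the mice carry was not tested. The count table holds 387 annotated genes of this interval, of which 170 were tested, 0 were called and 4 (2.35%) had an unadjusted p under 0.05, against 2.14% of all genes. These were *Abi3*, *Aoc3*, *Krt10* and *B130006D01Rik*, of which *Krt10* is the epidermal keratin that was high in WT mice 3 and 4.

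The Jrt;Sost-ko mice carry the same Jrt allele, and their values are set beside those above. They were compared with the same WT mice, so that both comparisons share these libraries. *Col1a1* had 21772, 26980, 29922 and 16886 CPM in Jrt;Sost-ko mice 1 to 4, a log2 fold change from WT of 0.68 (SE 0.337) beside 0.28 (SE 0.342) in Jrt;Sost-het mice. *Sfrp2* had 5.48, 5.92, 3.46 and 1.47 CPM, and its log2 fold changes were 1.10 (SE 0.431) and 1.16 (SE 0.309). Jrt;Sost-ko mice 1 to 3 were in the range of the Jrt;Sost-het mice, and mouse 4 was in that of the WT mice. *C4b* had 102, 117, 71.8 and 74.3 CPM. Jrt;Sost-ko mice 3 and 4 were under the lowest WT mouse, and the log2 fold change from WT was 0.10 (SE 0.167) beside 0.50 (SE 0.0974). *Ppat* had 49.4, 47.7, 49.0 and 57.3 CPM, so that every Jrt;Sost-ko mouse lay within or above the range of the WT mice, with log2 fold changes of 0.04 (SE 0.0762) beside -0.26 (SE 0.0699).

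Jrt;Sost-ko mouse 1 had the highest levels of these interferon-induced genes of all mice. *Mx1* had 34.7, 9.92, 12.1 and 11.5 CPM in Jrt;Sost-ko mice 1 to 4, *Xaf1* had 31.4, 9.86, 12.7 and 13.1 CPM and *Cxcl9* had 64.2, 7.38, 10.3 and 8.62 CPM. In these 3 genes the other 3 Jrt;Sost-ko mice lay within or near the range of the WT mice. *Ifi27l2a* had 64.0, 34.9, 30.5 and 41.4 CPM, where mouse 4 too was above every WT mouse. *Trdmt1* had 9.82, 9.89, 10.01 and 12.02 CPM, below every WT mouse, and *Myo5b* had 1.46, 0.866, 0.639 and 0.753 CPM, also below every WT mouse. Their log2 fold changes from WT were -0.27 (SE 0.0932) and -0.99 (SE 0.278) in Jrt;Sost-ko beside -0.33 (SE 0.0969) and -0.68 (SE 0.175) in Jrt;Sost-het mice. *Plin1* had 28.9, 38.6, 49.6 and 42.0 CPM, and its log2 fold change was 0.34 (SE 0.234).

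The direct comparison of the Jrt groups tests whether they differ. The log2 fold change (Jrt;Sost-ko minus Jrt;Sost-het) was -0.40 (SE 0.159) for *C4b*, 0.30 (SE 0.0706) for *Ppat*, -1.52 (SE 0.466) for *Igkv14-126*, -0.56 (SE 0.184) for *Lime1*, -0.06 (SE 0.411) for *Sfrp2* and 0.05 (SE 0.376) for *Mx1*, with an adjusted p from edgeR of 0.901 for the first 4, 0.983 for *Sfrp2* and 0.985 for *Mx1*. For *Gm16372* and *Cntn3* this comparison had too few counts for a test. For the 10 genes of smallest p in each direction between Jrt;Sost-het and WT mice, 0 of those tested were called between the Jrt groups. There edgeR called *Sost* alone of 16739 genes (0.00597%), whereas the paper lists further genes with DESeq.

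**Figure D5:**
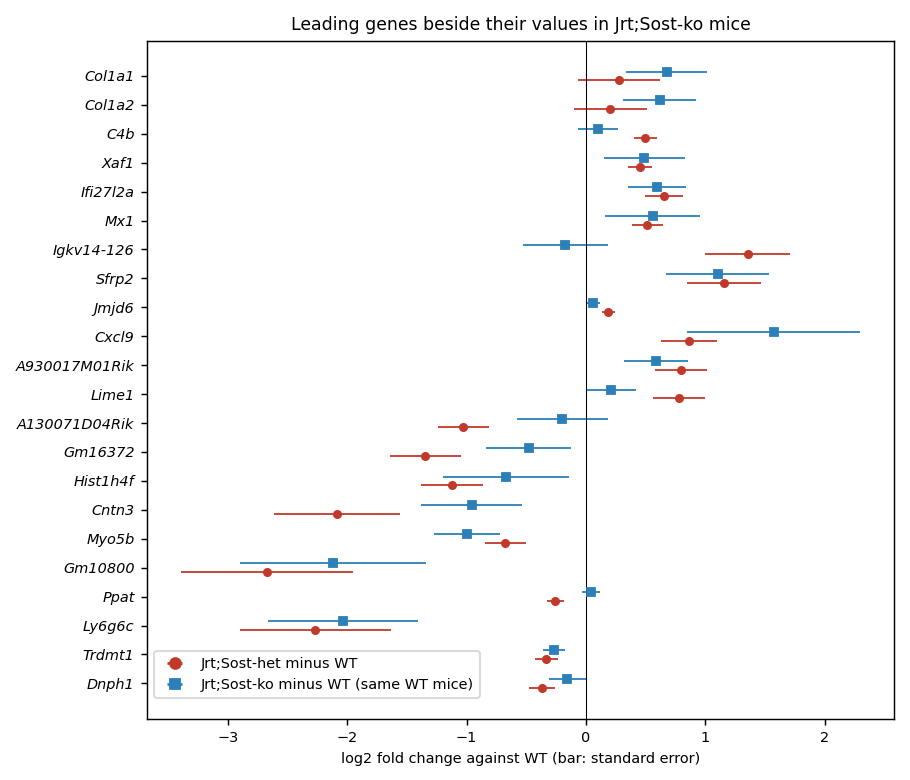
Log2 fold change against the same 4 WT mice, with its SE as a bar, of *Col1a1*, *Col1a2* and the 10 genes with the smallest p in each direction between Jrt;Sost-het and WT mice, in Jrt;Sost-het mice (red circles) and in Jrt;Sost-ko mice (blue squares). *C4b* and *Ppat* lie near 0 in Jrt;Sost-ko mice (0.10 and 0.04), and *Sfrp2* lies at 1.10. The red values chose the genes, and the blue values share the WT mice with them.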

How the data were processed

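Tibia RNA was sequenced on a NovaSeq instrument with paired ends, 1 library per mouse. Per the labels and the paper, the authors used bcl2fastq 2.20 and aligned the reads with STAR to GRCm38 (mm10). The tool and annotation behind the deposited counts are not given in the sources used here, and strand-specific counting is not stated. The deposited table holds raw counts per gene that the authors did not normalize. The tables of the authors' own comparisons hold fold changes and p-values and were not used.

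Counts of the 4 Jrt;Sost-het and 4 WT mice were filtered with filterByExpr, scaled by TMM and tested with the quasi-likelihood test of edgeR 4.0.16 in R 4.3.3, with Benjamini-Hochberg adjustment over all 16775 genes tested and a threshold of 0.05. CPM are counts per 1000000 of the library size as scaled by TMM over all 12 mice, and their spread is given as SD. Median total counts were 26164560 in Jrt;Sost-het and 38463711.5 in WT mice. The labels do not say whether mice were littermates. Exact two-sided permutation tests of CPM used all 70 arrangements of the 8 mice, of which the smallest p is 0.0286. Alternatives were DESeq2 1.42.0, limma-voom (limma 3.58.1), other scalings, filters and covariates, and leaving out mice.

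Named genes were *Col1a1*, *Col1a2*, *Sost*, every gene called, the 10 genes of smallest p in each direction and, in each of 30 lists, the 3 members of smallest p and the 2 of highest CPM. The members and lists were chosen with earlier results of these data known. Other genes named for their role, such as *Hspa5*, *Ddit3*, *Runx2*, *Dkk1*, *Axin2*, *Ctsk*, *Adipoq*, *Cfb*, *Cxcl10* and *Isg15*, and the genes of the interval between *Col1a1* and *Sost*, were chosen after their values were seen. Positions of 98.9% of genes matched GENCODE M21 (GRCm38). Exon sequences were read from that annotation's transcripts and promoters from RefSeq (GRCm38.p6).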

Additional observations from a re-analysis of the deposited data

Results flagged for a closer look

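In groups of 4 mice, the gap between the highest or lowest mouse and its nearest neighbour was divided by the range of the group, and values above Dixon's critical value were noted. This was the case in 7 of 106 groups, where chance gives 5.3. In Jrt;Sost-het mice, mouse 3 was highest for *Sost* (0.83), *Cntn3* (0.885) and the mean log2 CPM of the endoplasmic reticulum stress genes (0.84), and lowest for *A130071D04Rik* (0.928). Mouse 4 was lowest for the mean log2 CPM of the genes of dividing cells (0.867). In WT mice, mouse 4 was lowest for *Ppat* (0.936) and mouse 2 was highest for *Trdmt1* (0.876). Without Jrt;Sost-het mouse 3 the log2 fold change of *Sost* was -0.83 in place of -0.41.

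*Sost* differed between the groups that carry the Jrt allele. Its level was 0.569, 1.28, 0.506 and 0.328 CPM in Jrt;Sost-ko mice 1 to 4, and the log2 fold change (Jrt;Sost-ko minus Jrt;Sost-het) was -5.87 (SE 0.485), with an adjusted p of 0.013 from edgeR. All 4 Jrt;Sost-ko mice were below all 4 Jrt;Sost-het mice.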

How the results depend on the processing

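Over 19 alternatives, 0 genes were called. The number with an unadjusted p under 0.05 was 343 to 359 with other scalings or robust estimation, 307 of 15358 genes with at least 10 counts in each mouse, 817 of 30284 genes without a filter, 416 with all 12 mice in 1 fit and 575 with muscle genes as a covariate. It was 270 to 1591 when 1 mouse was left out and 3408 of 17196 genes without WT mice 3 and 4. The count of 1591, that without WT mouse 4, was of 16934 genes. The cause of these 2 high counts was not tested. *Col1a1*, *Col1a2* and *Sost* kept their direction and were not called. The log2 fold change lay between 0.10 and 0.84 for *Col1a1*, 0.04 and 0.70 for *Col1a2* and -0.83 and -0.23 for *Sost*. The sign of the median held over all alternatives in 15 of 30 lists, and no list changed sign under another scaling. No paired analysis was possible because the labels carry no replicate numbers. With 4 mice per group and a median SE of 0.135, small differences were not detectable. *C4b*, with a log2 fold change of 0.50 and an SE of 0.0974, was not called. Nor was any of the 110 genes with an estimated fold change over 2. The lack of called genes therefore does not exclude changes of that size in single genes.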
